A study of Mus musculus with 20 samples.

Results

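Of 149774 stretches of open chromatin found in at least 1 of 6 ATAC libraries of mouse hematopoietic stem cells, 2568 (1.71%) had a peak in the libraries titled Control 3, 6bKO 2 and 6bKO 3 and none in those titled Control 1, Control 2 and 6bKO 1. A region here is the union of all peaks that overlap by at least 1 bp. The 2568 regions, called members below, were picked by that pattern of presence and absence alone. The rule that sorts the libraries was itself set with the quality of their peak lists known. The pattern crosses the titles, since it joins 1 Control library with 2 libraries titled 6bKO. The presence of the peaks is therefore not a finding, and the authors' values for these peaks are given as a description with no test.

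The series compared hematopoietic stem cells of Vav-CRE Kdm6b fl/fl mice, called Kdm6b-KO, with Vav-CRE Kdm6b+/+ mice, called Control, all on the C57BL/6 background and 8 weeks old. Both groups carry the Cre driver, which acts throughout blood formation and not only in stem cells. Cells were sorted as Lin- cKit+ Sca1+ CD150+ CD48-, RNA was counted in 3 libraries per group, each from marrow pooled over 3 male and 3 female mice, and ATAC was run on 10000 sorted cells per library, 3 titled Control and 3 titled 6bKO. Of the 20 samples, 8 of chromatin immunoprecipitation and input were not analysed here. The genotype label of all 6 ATAC libraries reads wild-type, so their groups rest on the titles, and "6bKO" is used below as a title. Nothing in the labels links an ATAC library to the RNA library with the same number.

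ATAC-seq uses a transposase that inserts adapters where DNA is not wrapped tightly in nucleosomes, so reads pile up over promoters and enhancers in use. A peak caller then keeps places where the pile of reads exceeds what the local and genome-wide read density would give. Promoters of genes active in every cell give tall peaks, while enhancers, which act on genes from a distance, are often lower and lie within introns or between genes. Kdm6b removes methyl groups from lysine 27 of histone H3, a mark laid down by Polycomb complexes at repressed genes.

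Promoter sequence is shown for the few members that covered a gene start. Sequence of members away from starts was not analysed here. In 18 members, each at a different protein-coding gene, the whole stretch of 250 bases before the gene's outermost start lay inside the region and no region shared by all 6 libraries touched a start of that gene. The 4 of these with the highest fold enrichment, taken as the lowest of the 3 libraries' values, are shown 5′ to 3′ on the gene's strand, from RefSeq on GRCm38.p6. They are the windows of Trmt61a (chr12:111677855-111678104, plus strand), Tsc22d3 (chrX:140600523-140600772, minus strand), Yes1 (chr5:32610921-32611170, plus strand) and Tie1 (chr4:118489850-118490099, minus strand). Capitals mark exact matches, on either strand, to 7 short motifs of transcription factors. The ETS motif was spelled CCGGAAG and the motif of the SP family GGGCGGG. For GATA factors the letters searched were AGATAAG, and for RUNX factors they were TGTGGT. For AP-1 the letters were TGANTCA, with any base at N. The CRE, bound by CREB factors, was TGACGTCA and the E-box was CAGCTG. None of these spellings contains another.
Trmt61a: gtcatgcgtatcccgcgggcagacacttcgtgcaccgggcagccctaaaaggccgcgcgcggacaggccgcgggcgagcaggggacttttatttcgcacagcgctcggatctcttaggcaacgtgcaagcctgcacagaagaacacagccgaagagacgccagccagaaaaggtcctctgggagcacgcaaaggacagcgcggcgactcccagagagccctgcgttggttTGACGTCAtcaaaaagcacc
Tsc22d3: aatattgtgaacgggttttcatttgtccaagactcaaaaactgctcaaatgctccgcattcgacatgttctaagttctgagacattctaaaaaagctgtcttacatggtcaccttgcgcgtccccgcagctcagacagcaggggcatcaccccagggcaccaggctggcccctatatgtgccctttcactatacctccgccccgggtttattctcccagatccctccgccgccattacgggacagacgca
Yes1: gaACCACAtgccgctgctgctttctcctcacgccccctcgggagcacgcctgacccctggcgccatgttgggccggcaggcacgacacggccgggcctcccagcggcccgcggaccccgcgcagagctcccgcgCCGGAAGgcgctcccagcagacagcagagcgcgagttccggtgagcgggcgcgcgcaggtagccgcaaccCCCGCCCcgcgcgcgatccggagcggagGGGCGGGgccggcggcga
Tie1: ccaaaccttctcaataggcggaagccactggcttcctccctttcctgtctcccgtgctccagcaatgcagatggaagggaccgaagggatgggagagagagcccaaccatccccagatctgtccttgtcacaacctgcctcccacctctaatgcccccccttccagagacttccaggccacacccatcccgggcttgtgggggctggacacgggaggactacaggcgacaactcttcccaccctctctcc

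The Trmt61a window held 1 CRE match, the Yes1 window 1 ETS, 2 SP and 1 RUNX match, and the windows of Tsc22d3 and Tie1 held none of the 7. The GC content was 61.6% for Trmt61a, 52.4% for Tsc22d3, 77.2% for Yes1 and 60.4% for Tie1. The ratio of CpG dinucleotides observed to those that base composition would give was 1.01, 0.735, 0.997 and 0.28 in the same order. The Trmt61a and Yes1 windows thus had close to the full number of CpG and the Tie1 window few.

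Trmt61a, the catalytic subunit of a tRNA adenosine methyltransferase, had a member of 629 bp at its start, with the authors' fold enrichment at 5.92 in Control 3, 8.04 in 6bKO 2 and 11.4 in 6bKO 3. Its RNA was at 5.22, 2.41 and 3.58 CPM in Control and at 4.54, 6.76 and 6.08 CPM in Kdm6b-KO. CPM is a gene's counts over the library's summed counts of tested genes, adjusted by TMM factors and scaled to a common total. Tie1, a receptor tyrosine kinase of endothelial cells and hematopoietic stem cells, had a member of 760 bp with fold values of 5.38, 8.93 and 8.06 in Control 3, 6bKO 2 and 6bKO 3. The groups' RNA values overlapped for Trmt61a, and the Tie1 promoter was called in a Control library as well as in both libraries titled 6bKO. Tie1 RNA was 93.1, 106 and 137 CPM in Control against 170, 193 and 201 CPM in Kdm6b-KO, so the groups did not overlap. The log2 fold change of Tie1 was 0.75 (SE 0.20) and did not pass the test across all genes (edgeR quasi-likelihood test, adjusted p = 0.118). Tie1 passed in 2 of 11 other settings of that fit, at an adjusted p of 0.0274 at the lowest.

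Yes1, a kinase of the Src family, had the widest region of the 4, 1503 bp, with fold values of 7.27, 5.54 and 6.44. Its RNA was 13.1, 26.8 and 18.0 CPM in Control against 10.7, 15 and 12.6 CPM in Kdm6b-KO, with overlap. Tsc22d3, a glucocorticoid-induced leucine zipper protein, had a member with fold values of 5.74, 5.90 and 7.36. Its RNA was far more abundant, at 876, 1200 and 806 CPM in Control against 684, 552 and 776 CPM in Kdm6b-KO, without overlap between the groups and without passing the test (edgeR, log2 fold change -0.52, SE 0.23, adjusted p = 0.322). A member at a promoter could thus accompany RNA from a few CPM to the level of Tsc22d3. The counts cover the whole gene, so they do not tell how much RNA began at the start under the member.

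The 3 libraries that define the members were not the 3 with the longest peak lists. Control 3, 6bKO 2 and 6bKO 3 held 62125, 53692 and 69729 peaks, and Control 1, Control 2 and 6bKO 1 held 47450, 44739 and 63682. 6bKO 1, which the rule asks to be empty, therefore had more peaks than 6bKO 2. The 3 stood apart in how strong and wide their peaks were. They were grouped with the quality of their lists known, so this separation is a description and not a finding. The median −log10 q, the authors' own measure of how unlikely each peak is by chance, was 14.0, 12.4 and 13.8 in Control 3, 6bKO 2 and 6bKO 3, against 7.19, 9.41 and 6.85 in Control 1, Control 2 and 6bKO 1. Median peak width was 327, 317 and 346 bp against 273, 299 and 274 bp. On both measures the 2 sets of 3 libraries did not overlap, while the titles did: over the 3 libraries of each title, median −log10 q was 10.2 ± 3.47 and 11 ± 3.68 (SD, n = 3 each, exact two-sided permutation p = 1.0, adjusted p = 1.0 over 5 measures). With 3 libraries against 3 the smallest p such a test can give is 0.1.

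Read depth was not given, but each peak's fold enrichment and p together fix the whole number of reads at its summit and the background expected there. These were recovered for 99.99% to 100% of the peaks of each list, within a tolerance of 0.001. The commonest background, the genome-wide read density that the caller used, was 1.79, 2.16 and 4.95 reads per position in Control 1, 2 and 3 and 0.526, 1.79 and 1.36 in 6bKO 1, 2 and 3. Relative to 6bKO 1 this is 3.40, 4.11, 9.41, 1, 3.40 and 2.59 times. Control 3 had the highest background of all 6 and 6bKO 1 the lowest, but 6bKO 3 lay below Control 1 and Control 2, so background alone did not order the 6 libraries as the rule does.

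Summit depth in the 19466 regions shared by all 6 libraries did order them that way. The median number of reads at the summit there was 98 in Control 3, 51 in 6bKO 2 and 72 in 6bKO 3, against 29 in Control 1, 38 in Control 2 and 22 in 6bKO 1. Set over the background, the same depth was 16.2, 17.6 and 19.8 times in the Control libraries and 41.8, 28.5 and 52.9 times in those titled 6bKO. This ratio separated the titles instead, with no overlap between them, at 17.9 ± 1.81 and 41.1 ± 12.2 (SD, n = 3 each, exact two-sided permutation p = 0.1, the smallest possible, adjusted p = 0.333 over 5 measures). The rule's split of the libraries thus went with the raw depth at shared regions, and the contrast of peak over background went with the titles. Since the split was made with the quality of the lists known, its match to depth is no independent result. Whether the members are empty in the other 3 libraries for want of reads was not tested.

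**Figure D1:**
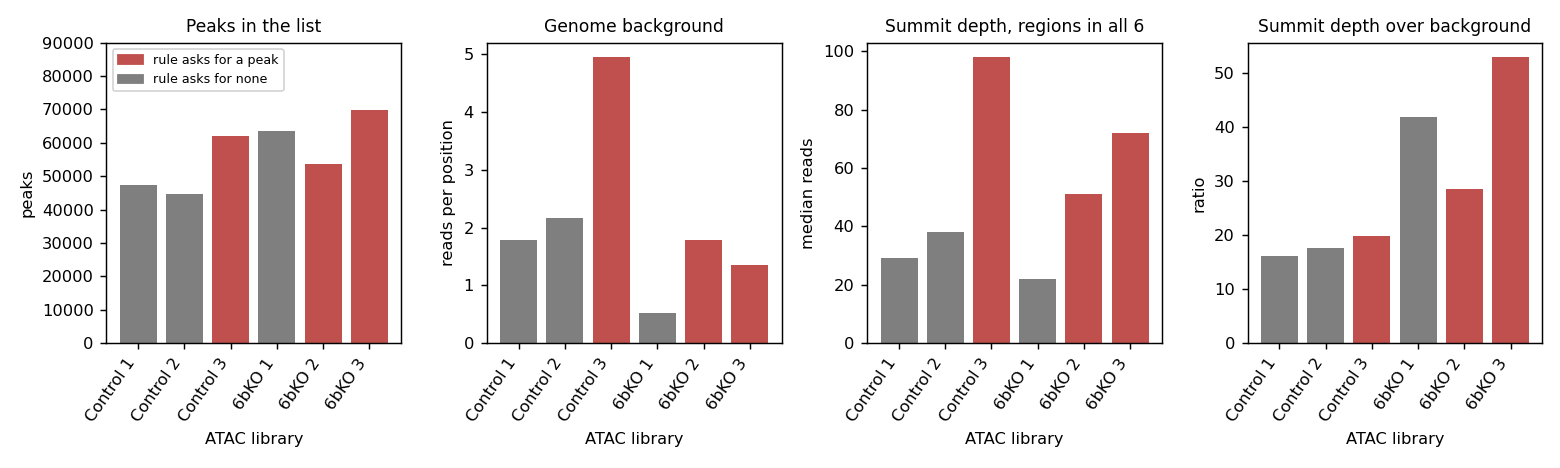
Bars give, for each of the 6 ATAC libraries, the number of peaks, the genome background in reads per position, the median summit reads in regions of all 6 libraries, and that depth divided by the background. Red bars are Control 3, 6bKO 2 and 6bKO 3, which have the 3 highest summit depths (51 to 98 reads) but not the 3 highest values in the other panels.

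At their own summits the members were modest. The median read pile at a member was 29 in Control 3, 18 in 6bKO 2 and 21 in 6bKO 3. Scaled down by the ratio of the shared-region depths, those medians would be 8.46 to 10.2 reads in Control 1, 11.1 to 13.4 in Control 2 and 6.42 to 7.76 in 6bKO 1. The smallest pile that those libraries' lists contain at the genome-wide background was 9, 10 and 5 reads. The scaled values spanned that pile in Control 1 and lay above it in Control 2 and 6bKO 1. In each they lay below the median pile of peaks private to that library, 13, 14 and 8 reads. The background at member peaks had medians of 5.40, 2.15 and 1.74 in Control 3, 6bKO 2 and 6bKO 3. Each was above the genome-wide 4.95, 1.79 and 1.36, so the smallest pile at that level is a lenient yardstick.

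The count of such regions was lopsided. Among the 34494 regions with a peak in each of Control 3, 6bKO 2 and 6bKO 3, 7.44% lacked a peak in all of the others. In the opposite direction, 20043 regions had a peak in each of Control 1, Control 2 and 6bKO 1, and 21 of them (0.105%) lacked a peak in the other 3. Regions that follow the titles were fewer than the members: 1948 had peaks in the 3 libraries titled 6bKO alone and 431 in the 3 Control libraries alone. Members were thus 1.32 times as many as the former and 5.96 times as many as the latter, and made up 26.4% of the 9743 regions found in exactly 3 libraries. A split that the study did not make, set with the quality of the peak lists known, gave more regions than the split by title.

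Holding every list to its 44739 strongest peaks, the length of the shortest, changed this order. The members then fell to 1395, below the 1486 regions of the libraries titled 6bKO alone, while the Control-only regions rose to 731 and the opposite set to 37. The ratio of regions only in 6bKO to regions only in Control fell from 4.52 to 2.03 in the same step. Keeping only peaks with a −log10 q of at least 5 went the other way, to 2779 members, 1760 regions only in 6bKO, 317 only in Control and 6 in the opposite set. At a −log10 q of at least 3 there were 2580 members, and with peaks joined only at 50% overlap or across gaps of up to 200 bp there were 2568 and 2515.

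**Figure D2:**
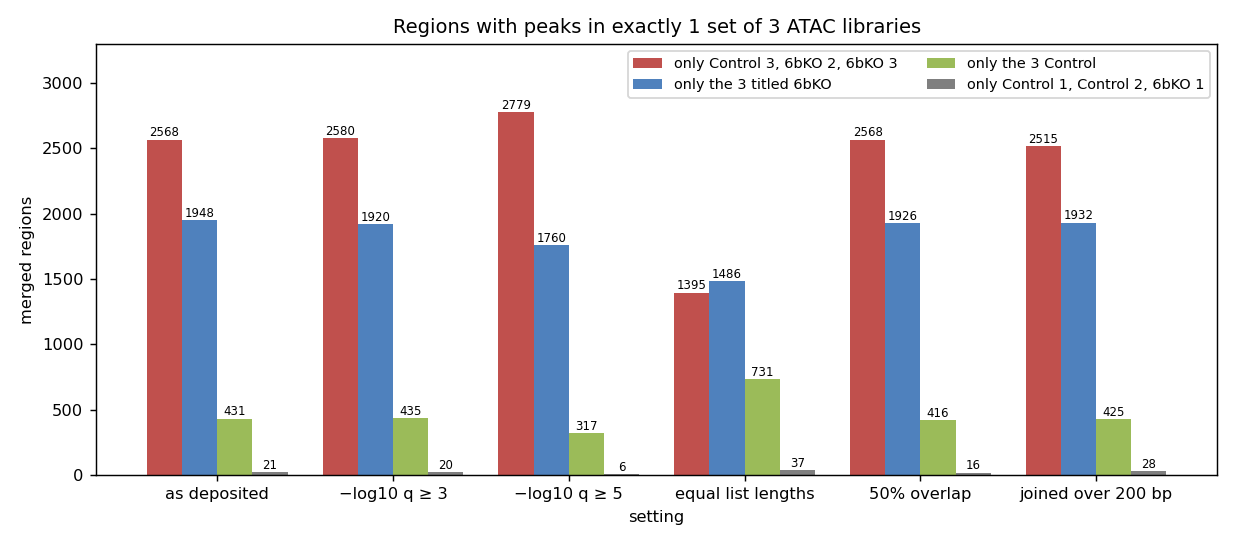
Bars count the merged regions with peaks in exactly 1 set of 3 libraries, under 6 ways of filtering or joining the authors' peaks. The members (red) outnumber the regions of the 3 libraries titled 6bKO alone (blue) in 5 settings and fall below them, 1395 against 1486, with equal list lengths.

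The peaks of the members were weak in their own lists. The authors' fold enrichment, the summit pile over its background with 1 read added to each, had a median of 4.22 over the 2580 member peaks of Control 3, where the list median was 5.05 and peaks shared by all 6 libraries reached 10.1. In 6bKO 2 the 2584 member peaks had a median of 5.71 against 6.65 for the list and 11.2 for shared peaks. In 6bKO 3 the 2583 member peaks had 7.06 against 7.34 and 14.4. In each list the members were lower than the average peak and higher than the peaks private to that library, whose medians were 3.53, 4.66 and 4.92.

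Ranks within each list by −log10 q give the same picture without units. Medians of the members stood at percentile 36.3 in Control 3, 35.6 in 6bKO 2 and 46.9 in 6bKO 3. Private peaks stood at 17.0, 12.7 and 16.9, and peaks shared by all 6 at 83.1, 80.1 and 85.2. Of the member peaks, 77.7%, 76.6% and 57.2% lay under the median of their list, and 0 of them were in the top 10% of any list. Regions that follow the titles ranked somewhat higher, at 43.9 in 6bKO 2 and 48.4 in 6bKO 3 for those only in 6bKO and at 51.7 in Control 3 for those only in Control.

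**Figure D3:**
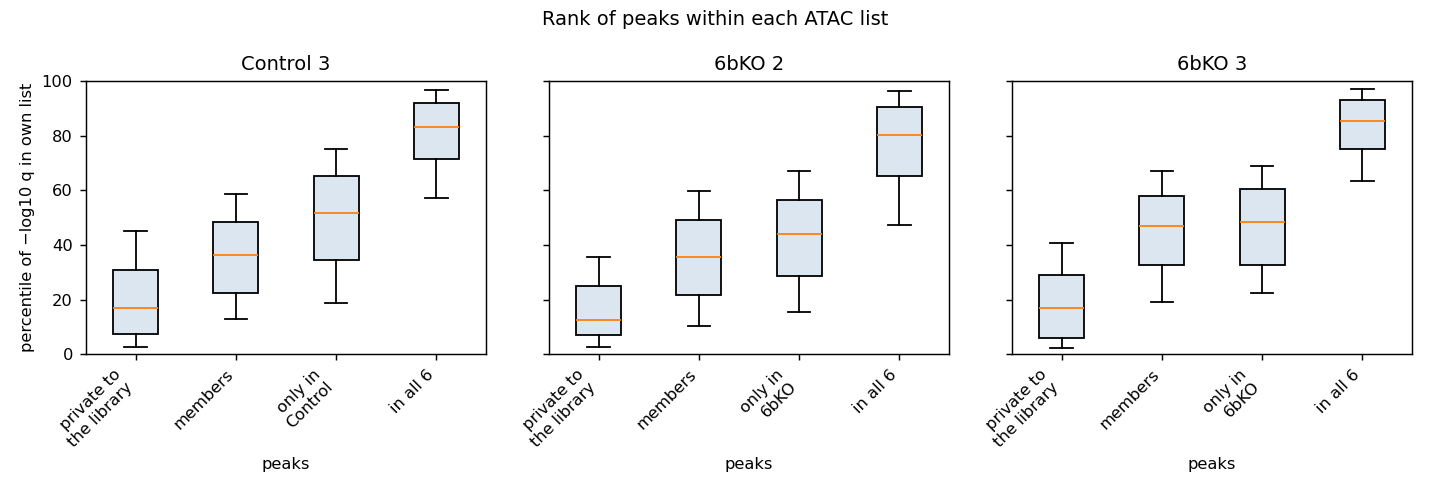
Boxes show where peaks of 4 kinds rank within the lists of Control 3, 6bKO 2 and 6bKO 3, as percentiles of −log10 q (line, median; box, quartiles; whiskers, 10th and 90th percentiles). Member medians of 36.3, 35.6 and 46.9 lie between private peaks (12.7 to 17.0) and peaks in all 6 libraries (80.1 to 85.2).

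Members varied among themselves. In 1047 of them (40.8%) the peak was under the list median in all 3 libraries, and in 144 (5.61%) it was above it in all 3. The library with the greatest percentile was 6bKO 3 for 1300 members, Control 3 for 651 and 6bKO 2 for 617. Across the members the percentiles of 6bKO 2 and 6bKO 3 had a Spearman rho of 0.382, those of Control 3 and 6bKO 3 of 0.264, and those of Control 3 and 6bKO 2 of 0.183. These describe 2568 regions whose values within a library share its depth, and are no test. The summits of a member's 3 peaks lay close together, with a median spread of 59 bp over the 2529 members that had 1 peak per library, against 55 bp for regions only in 6bKO, 87 bp for regions only in Control and 41 bp (1 peak per library) for regions in all 6.

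The strongest member, by the lowest of its 3 fold values, lay inside the long noncoding gene Gm38794 at chr6:39230643-39231067. Its fold was 11.7 in Control 3, 13.9 in 6bKO 2 and 10.8 in 6bKO 3, from piles of 103, 52 and 25 reads. A member inside Haglr, a noncoding RNA transcribed beside the HoxD cluster, spanned chr2:74749231-74749639 with fold values of 9.28, 10.4 and 15.9. Haglr RNA was close to 0, at 0.154, 0 and 0.219 CPM in Control against 0.0874, 0 and 0 CPM in Kdm6b-KO. Open chromatin was thus called in 3 libraries at a gene whose own RNA was hardly counted.

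Of the 10 strongest members, the other protein-coding neighbours were Ston2, an endocytic adaptor, Rhobtb2, a protein with BTB domains, Arpp21, an RNA-binding phosphoprotein, Adcy4, an adenylate cyclase, and Tspan15, a tetraspanin. The lowest of the 3 fold values was 8.68 at Ston2, 8.54 at Rhobtb2, 8.50 at Arpp21, 8.31 at Adcy4 and 8.27 at Tspan15. Their RNA was low. Adcy4, for instance, was at 0.154, 0.508 and 2.34 CPM in Control against 2.53, 1.31 and 3.91 CPM in Kdm6b-KO, overlapping and not past the test (edgeR, adjusted p = 0.450). Rhobtb2 was highest, at 9.83, 11.6 and 14.0 CPM against 16.2, 21.8 and 23.1 CPM, with no overlap and an edgeR adjusted p of 0.198.

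The 3 weakest members lay within 1417 to 2125 bp of the starts of abundant or moderately abundant genes. They were in Ptma, which encodes prothymosin alpha, in Prkd2, a protein kinase D, and in Mnt, a partner of Max that opposes Myc. At Ptma the fold was 2.15, 2.39 and 2.38 on piles of 108, 44 and 66 reads, and at Mnt it was 1.86, 2.79 and 2.50 on 113, 65 and 84 reads. These piles exceeded the strongest member's in 6bKO 3, so a low fold here went with a high local background and not with few reads. Ptma RNA was 348, 237 and 271 CPM in Control against 301, 260 and 236 CPM in Kdm6b-KO, and the groups overlapped.

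Members sat mostly away from gene starts. Gene starts were known for 2492 members, those on the autosomes and sex chromosomes other than 18, and 323 of them (13%, 95% Clopper-Pearson interval 11.7% to 14.3%, counting error only) lay within 1 kb of a start. Another 55.8% lay elsewhere inside a gene and 31.2% between genes. The share at a start was 8.32% for regions only in 6bKO, 9.93% for regions only in Control, 5.83% for regions in Control 3, 6bKO 2 or 6bKO 3 alone, 11.9% over all regions and 41.8% for regions in all 6. The members' share at starts was thus above that of regions private to 1 of the 3 libraries and far below that of regions in all 6, with no test over regions.

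Members lay at a median of 15622.5 bp from the nearest start, against 23074 bp for regions only in 6bKO and 18423 bp for regions only in Control. They also lay near stronger open chromatin: 16.5% were within 5 kb of a region of all 6 libraries, against 9.60% of regions only in 6bKO, 22.3% of those only in Control and 8.61% of those private to 1 of the 3 libraries. Median width was 385 bp (quartiles 298 and 491), close to 387.5 bp for regions only in 6bKO and below 667 bp for regions in all 6. Members at a start were wider, at 455 bp, but ranked no higher in the lists, with median percentiles of 34.5, 31.9 and 46.9.

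**Figure D4:**
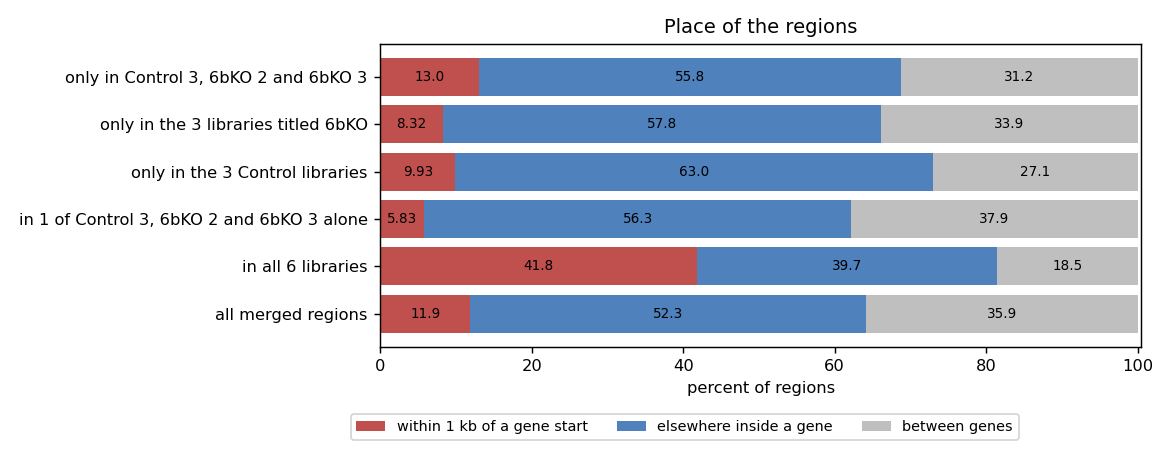
Stacked bars divide 6 sets of regions into those within 1 kb of a gene start, those elsewhere inside a gene and those between genes, in percent of regions. The members (top bar, 13% at a start) lie above the regions of single libraries (5.83%) and below the regions in all 6 libraries (41.8%).

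The members were spread over the genome. Chromosome 11 held 6.46% of them and 6.25% of all regions, and chromosome X 2.26% and 2.28%. Per 1000 regions the number of members ran from 14.0 on chromosome 4 to 22.9 on chromosome 19, leaving out Y with its single member. No chromosome carried the set. The member nearest to Kdm6b itself lay 72109 bp away inside Kcnab3, a potassium channel subunit, at chr11:69326105-69326399 with fold values of 5.80, 6.49 and 8.46.

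Few members were misses by a narrow gap. The nearest peak of any of Control 1, Control 2 and 6bKO 1 lay at a median of 3883.5 bp, and it lay within 200 bp for 86 members (3.35%) and within 1 kb for 500 (19.5%). Just outside the rule were the regions with a peak in Control 3, 6bKO 2, 6bKO 3 and exactly 1 more library: 1040 with Control 1, 1688 with Control 2 and 2623 with 6bKO 1. Their added peak had a median −log10 q of 6.29 in Control 1, 7.90 in Control 2 and 8.09 in 6bKO 1, where the whole lists had 7.19, 9.41 and 6.85. The added peaks were below the list median in Control 1 and Control 2 and above it in 6bKO 1.

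Sequence before the gene starts placed member promoters between the shared and the closed ones. The 250 bases before a start overlapped a member in 220 windows of 199 genes, with a median GC content of 58.6% and a median CpG ratio of 0.559. The 9488 windows overlapped by a region of all 6 libraries had 61.6% and 0.773, the 18252 windows overlapped by no region 47.2% and 0.21, and all 32851 windows 52.4% and 0.373. A CpG ratio over 0.6 was found in 45% of member windows, 74.5% of shared ones, 9.58% of closed ones and 34.0% of all.

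By share of windows, SP, ETS and CRE letters were less frequent in member windows than in shared ones and more frequent than in closed ones. AP-1 and RUNX letters ran the other way. Of the 220 member windows, 75 held SP letters, 25 RUNX, 13 ETS, 12 AP-1 and 4 CRE. A few windows more or less would change the order for the rarer motifs, and no difference was tested. The SP letters were in 34.1% of member windows, 47.3% of shared ones, 8.23% of closed ones and 23.4% of all, and the ETS letters in 5.91%, 15.9%, 2.34% and 6.91%. In the same order, CRE letters were in 1.82%, 3.10%, 0.707% and 1.55%, AP-1 letters in 5.45%, 3.68%, 8.58% and 6.75% and RUNX letters in 11.4%, 10.5%, 16.2% and 14.0%. E-box letters were in 15%, 11.1%, 13.6% and 13%. GATA letters were in 0 of the 220 member windows, 1.31% of shared ones, 3.54% of closed ones and 2.74% of all, which says only that these letters are not there. Some SP and ETS matches lie in the same CpG-rich windows, as in that of Yes1.

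RNA levels, which the rule did not use, stood in the same middle position. A member lay at a start of 360 genes, and in 286 of them no region of all 6 libraries lay at any start. For those 286, of which 226 had a row in the counts, median RNA over the 6 libraries was 1.73 CPM (quartiles 0.198 and 18.5). Genes with a region of all 6 libraries at a start had 32.9 CPM (9.36 and 78.9) and genes with no region at any start 0.0365 CPM (0 and 0.178). Of the genes with a counts row, 56.6% of the first kind, 91.1% of the second and 11.6% of the third had enough counts to be tested. Median RNA of the 286 genes thus lay between those of shared and closed promoters, with widely spaced quartiles. Regions of fewer than 6 libraries may lie at other starts of these genes. These are levels by count without regard to gene length.

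The sorted cells carried RNA of hematopoietic stem cells: Kit was at 781 to 2170 CPM, Slamf1, which encodes CD150, at 49.7 to 80.8 CPM and Procr at 83.4 to 164 CPM over the 6 RNA libraries, while Cd48 was at 4.60 to 16.7 CPM and Cd3e of T cells at most at 0.0874 CPM. Assigned counts ran from 6793873 to 19336121. Kdm6b, the deleted gene, had 92.0, 282 and 221 CPM in the Control libraries and 142, 202 and 191 CPM in the knockout. The groups overlapped (edgeR, log2 fold change -0.15, SE 0.35, adjusted p = 0.882), and since the counts cover the whole gene while the labels do not name the exons removed, this does not check the genotype. Summed markers of mature cells differed between libraries: erythroid genes summed to 8570 to 11500 CPM in Control and 4680 to 5860 CPM in Kdm6b-KO, and neutrophil genes to 1270 to 3700 CPM and 293 to 4360 CPM. Of the erythroid and neutrophil lists, 14 of 15 and 15 of 17 genes were tested and 0 in either direction passed in edgeR. At an unadjusted p under 0.05, 1 erythroid gene was higher and 3 lower, and 0 neutrophil genes higher and 1 lower, while DESeq2 and limma-voom each called 1 erythroid gene lower and 0 neutrophil genes. Over all tested genes 7.63% were higher and 7.22% lower at that unadjusted p. DESeq2 called 1.39% higher and 2.01% lower, and limma-voom 0.151% and 0.125%. The part of mature cells in the RNA results that follow was not tested.

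Genes near members were called in the knockout RNA at a share near that of all genes. Over all 15185 tested genes, 0.461% passed (edgeR, adjusted p under 0.05), 37 higher and 33 lower in Kdm6b-KO. Of 3681 genes within 50 kb of a member, 12 passed (0.326%), 7 higher and 5 lower. Chromosome 11, which carries Kdm6b, held 27 of the 57 called genes with a position and 4 of the 12 near members, Stxbp4, Slc39a11, Arhgap27os3 and Gm20234, but 8.26% of the tested genes with a position and 8.48% of those near members. The share was 0.537% (6 of 1118) for genes overlapped by a member or within 1 kb of it, 0.414% (7 of 1691) within 10 kb and 0.461% (45 of 9757) beyond 50 kb. Groups of 3 libraries did not overlap for 20.9% of the near genes and for 20.5% of all. Near genes had a median log2 fold change of 0.07 and all tested genes one of -0.001.

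Those 12 calls depended on the libraries. Without RNA 6bKO 2 or without RNA 6bKO 3, 2 near genes passed in each case, and without RNA Control 2 there were 9, of which 5 were among the 12. Without RNA Control 1 there were 115 near genes, with all 12 among them, out of 519 over all genes. Without RNA Control 3 there were 32 and without RNA 6bKO 1 there were 21, with 9 and 7 of the 12. DESeq2 called 108 near genes of 466. The share called of near genes, set beside that of all genes, was 3.16% and 3.40% with DESeq2, 3.00% and 3.22% without RNA Control 1, 0.861% and 1.05% without RNA Control 3, 0.235% and 0.285% without RNA Control 2 and 0.570% and 0.633% without RNA 6bKO 1. It was 0.0529% and 0.151% without RNA 6bKO 2 and 0.0537% and 0.129% without RNA 6bKO 3. In these 7 fits the near genes had the lower share. Their share was also lower with limma-voom (0.217% and 0.277%) and with the replicate block (0.407% and 0.58%). With library totals (0.733% and 0.659%) and without the filter on low counts (2.18% and 1.68%) the near genes had the higher share. The shares of all genes include genes without a position, which cannot count as near a member. In the main fit 0.424% of the tested genes with a position passed, against 0.461% of all. That share is not given for the other fits, so small gaps between near and all genes are not interpreted.

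Stxbp4, a syntaxin-binding protein, fell the most of the 10 named near genes. Its RNA was 225, 247 and 211 CPM in Control against 65.6, 75.3 and 47.8 CPM in Kdm6b-KO. All 3 knockout libraries lay below all Control libraries, and the log2 fold change was -1.86 (SE 0.21, edgeR adjusted p = 0.000429). It passed in 11 of 11 other settings of the fit, at adjusted p of 6.36e-14 to 0.0087, and 1 annotated gene overlaps it. The member inside Stxbp4 (chr11:90512887-90513296) had fold values of 4.04 in Control 3, 6.82 in 6bKO 2 and 14.7 in 6bKO 3, so a gene whose RNA fell held a region that was called in 1 Control library and 2 titled 6bKO.

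Nfia, a transcription factor of the nuclear factor I family, was the most abundant near gene that fell, at 1280, 1310 and 912 CPM in Control against 583, 485 and 402 CPM in Kdm6b-KO (edgeR, log2 fold change -1.25, SE 0.24, adjusted p = 0.0303). It overlaps 5 other annotated genes and holds 2 members, with fold values of 5.38, 5.72 and 6.24 at chr4:97757273-97757795 and of 5.31, 3.42 and 4.95 at chr4:97773209-97773565. Cbx3, the heterochromatin protein HP1 gamma, fell from 98.4, 150 and 86.1 CPM to 52.1, 55.7 and 41.0 CPM (edgeR adjusted p = 0.0353). The member near Cbx3 lay 40069 bp away, at the start of Snx10. Gria3, a glutamate receptor subunit, fell from 47.6, 66.6 and 44.6 CPM to 19.1, 28.3 and 23.3 CPM (edgeR adjusted p = 0.0439), with a member 13 bp outside its annotated span. In none of the 3 did the groups overlap. Of the 11 other settings Nfia passed in 8, Cbx3 in 6 and Gria3 in 5, and Cbx3 and Gria3 were not called without RNA Control 2 (adjusted p = 0.169 and 0.237), without RNA 6bKO 1 (0.0776 and 0.121), without RNA 6bKO 2 (0.146 and 0.135) or without RNA 6bKO 3 (0.288 for both). Nfia was not called without RNA 6bKO 1 (0.0512), 6bKO 2 (0.188) or 6bKO 3 (0.288, all by edgeR).

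Pim2, a serine/threonine kinase known to favour survival of blood cells, rose from 8.45, 12.5 and 22.4 CPM in Control to 44.1, 42.5 and 48.6 CPM in Kdm6b-KO (edgeR, log2 fold change 1.62, SE 0.30, adjusted p = 0.0323). The member inside it (chrX:7879858-7880159) had fold values of 4.62, 4.99 and 6.10, with Control 3 and 6bKO 2 close together. Pim2 passed in 7 of 11 other settings, and not without RNA Control 2 (adjusted p = 0.137), 6bKO 1 (0.0536), 6bKO 2 (0.137) or 6bKO 3 (0.239). Slc39a11, a zinc transporter, rose from 19.2, 23.3 and 22.8 CPM to 49.0, 50.9 and 51.9 CPM (edgeR, log2 fold change 1.22, SE 0.21, adjusted p = 0.0136) and passed in 9 of 11, not without RNA 6bKO 2 (adjusted p = 0.107) or 6bKO 3 (0.105). It overlaps 6 other genes, and its 2 members lie at the starts of Sstr2 and Cog1, so which gene such a region serves cannot be told from distance.

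The other named near genes that rose were lower in abundance. Emp1, an epithelial membrane protein, had the largest fold change of the 10, 3.00 on the log2 scale (SE 0.61, edgeR adjusted p = 0.0451), from 0.614, 0.508 and 0.292 CPM to 5.42, 2.94 and 2.67 CPM. This rests on 12 counts summed over the Control libraries and 143 over Kdm6b-KO, and Emp1 passed in 4 of 11 other settings. Mpst, a mercaptopyruvate sulfurtransferase, rose from 1.23, 0.762 and 1.24 CPM to 6.29, 4.25 and 8.31 CPM (edgeR adjusted p = 0.0255) and passed in 7 of 11. The member near Mpst lay 27056 bp away, inside another gene. Ercc2, a helicase of the repair and transcription factor TFIIH, rose from 4.15, 6.73 and 5.85 CPM to 12.4, 17.1 and 19.5 CPM (edgeR adjusted p = 0.0451), and its near member is at the start of Ppp1r13l. Arhgap27os3 rose from 5.53, 4.32 and 4.97 CPM to 11.6, 25.4 and 14.5 CPM (edgeR adjusted p = 0.0323). It is antisense to Arhgap27, and how strand was handled in the counting is unstated in the labels. Ercc2 and Arhgap27os3 each passed in 5 of 11. None of Emp1, Mpst, Ercc2 and Arhgap27os3 passed without RNA 6bKO 2 (edgeR adjusted p = 0.148, 0.0547, 0.214 and 0.241), without RNA 6bKO 3 (0.119, 0.222, 0.301 and 0.138) or without RNA Control 2 (0.130, 0.0937, 0.0782 and 0.112). Emp1, Ercc2 and Arhgap27os3 also missed without RNA Control 3 (0.0889, 0.0668 and 0.0582), and Emp1 without RNA 6bKO 1 (0.152). The remaining 2 of the 12, Gm18860 and Gm20234, are predicted genes.

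**Figure D5:**
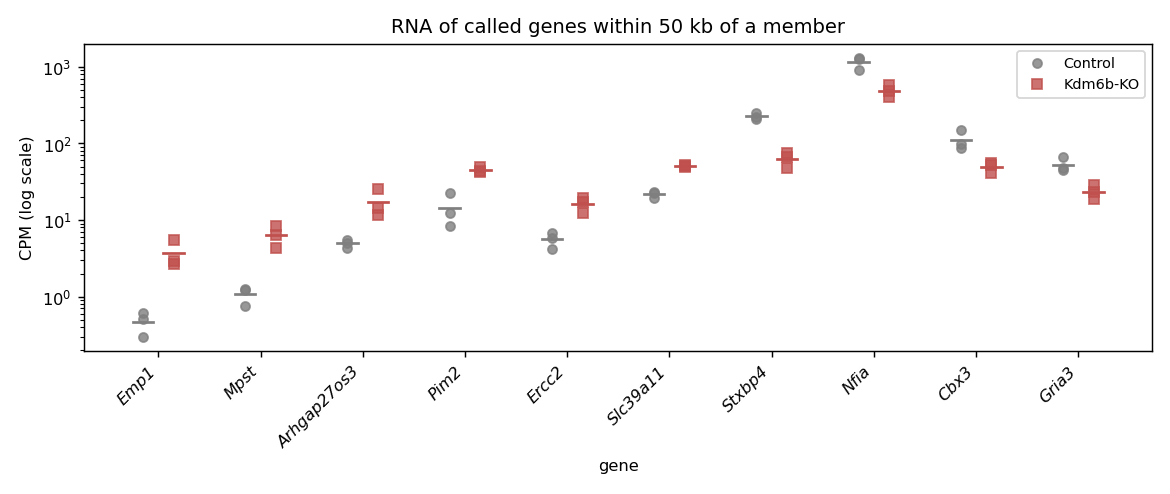
Points are RNA levels in CPM (log axis) of each Control and each Kdm6b-KO library for the 10 named genes that passed the edgeR test and lie within 50 kb of a member, with horizontal lines at the group means. The groups do not overlap for any of the 10, with Stxbp4 at 211 to 247 against 47.8 to 75.3 CPM.

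For the 2 lists of stem cell genes the shares with a member nearby are given as a description, with no test. Of 17 surface and other marker genes of stem cells, 4 (23.5%) had a member within 50 kb, and of 26 transcription factors of hematopoietic stem cells, 15 (57.7%) did, among them Erg, Fli1, Gata2, Hlf, Lyl1, Mecom and Meis1. Over the 12044 protein-coding genes tested in RNA the share was 28.0%, between the 2 lists, and over all 21900 protein-coding genes 21.7%. The 26 transcription factors had a region only in 6bKO within 50 kb in 34.6% (tested genes, 16.6%) and one only in Control in 7.69% (5.20%), and all 26 had a region of all 6 libraries that near. They were also longer, at a median of 45.2 kb against 24.1 kb, which gives a region more room to fall in. The part of gene length in the share was not tested. At an unadjusted p under 0.05 edgeR had 7.63% of all tested genes higher and 7.22% lower in RNA, while DESeq2 called 1.39% higher and 2.01% lower and limma-voom 0.151% and 0.125%. All 26 were tested and 0 passed in edgeR, with 1 higher and 4 lower at an unadjusted p under 0.05, while DESeq2 called 1 lower and limma-voom 0. The list's median log2 fold change was -0.02 against -0.001 over all tested genes.

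Mecom, a zinc-finger factor needed to keep stem cells, had a member within the gene with fold values of 5.21, 6.46 and 6.72 and RNA of 187, 226 and 249 CPM against 233, 241 and 202 CPM. Hlf, a bZIP factor of stem cells, had an intragenic member at 3.41, 4.90 and 7.89. Hlf RNA was 744, 648 and 654 CPM in Control against 499, 560 and 360 CPM in Kdm6b-KO, without overlap and without passing (edgeR, log2 fold change -0.53, SE 0.22, adjusted p = 0.291). Gata2, which works in stem and mast cells, had a member 8863 bp away at 4.42, 4.84 and 9.06. In each of these 3 the value of 6bKO 3 was the highest of the 3, and values of different lists are not on a common scale.

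Cytokine receptors and their signal transducers had members near 11 of 29 genes (37.9%), and 10 of 29 (34.5%) had a region only in 6bKO that near. Over the protein-coding genes tested in RNA these shares were 28.0% and 16.6%. Csf2rb, the shared beta chain of the IL-3 and GM-CSF receptors, had a member within the gene at 5.72, 6.95 and 7.20. Csf2rb RNA was 41.3, 60.0 and 45.4 CPM in Control against 87.1, 80.9 and 81 CPM in Kdm6b-KO, without overlap (edgeR, log2 fold change 0.76, SE 0.20, adjusted p = 0.114) and passed in 3 of 11 other settings. Stat4, a transcription factor of cytokine signalling, had one at 5.72, 6.82 and 10.6 and overlapping RNA. Genes of histone and DNA methylation, its removal and Polycomb complexes had members near 10 of 29 (34.5%). That near Dnmt1, the maintenance DNA methyltransferase, lay 13776 bp away inside S1pr2, at 6.27, 6.44 and 8.23. That near Kmt2b, a histone H3 lysine methyltransferase, lay 36803 bp away, at 8.62, 6.79 and 14.2. It was within 1 kb of a gene start, with Cox6b1 the nearest gene. Of the cytokine list 28 genes were tested in RNA and 0 passed in edgeR, with 9 higher and 2 lower at an unadjusted p under 0.05, 5 called higher by DESeq2 and 0 by limma-voom. Of the list of methylation and Polycomb genes 29 were tested and 0 passed in edgeR, with 1 higher and 4 lower unadjusted, 2 called lower by DESeq2 and 0 by limma-voom. For both lists, the shares over all tested genes were 7.63% higher and 7.22% lower unadjusted. With DESeq2 they were 1.39% higher and 2.01% lower.

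AP-1 and immediate early genes had members near 10 of 30 (33.3%), with 1 inside or within 1 kb of the gene. Over the protein-coding genes tested in RNA the share with a member within 50 kb was 28.0%. This list, short in gene length at a median of 4.66 kb, had 24 genes tested in RNA, of which edgeR called 4 higher and 0 lower, where 0.244% of all tested genes were called higher, and a median log2 fold change of 0.91. At an unadjusted p under 0.05, 14 were higher and 1 lower. DESeq2 called 8 higher and limma-voom 3, and each called 0 lower. Over all tested genes the shares higher were 7.63% unadjusted, 1.39% with DESeq2 and 0.151% with limma-voom. The shares lower were 7.22%, 2.01% and 0.125%. This list was noted as higher in earlier work on these same libraries and is not independent evidence. Ier3, an early response gene, had a member 33326 bp away at 6.15, 5.66 and 8.06 and RNA of 21.0, 17.7 and 34.7 CPM against 51.2, 39.3 and 42.6 CPM, not past the test (edgeR, adjusted p = 0.163). Maff, a small Maf factor, had one 11392 bp away at 4.44, 4.88 and 7.09.

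Lists of other cell types had members as well. A member lay within 50 kb of 7 of 16 T and NK cell genes (43.8%), 6 of 12 endothelial genes (50.0%), 6 of 14 megakaryocyte genes (42.9%), 6 of 17 neutrophil genes (35.3%), 4 of 15 erythroid genes (26.7%), 2 of 13 B cell genes (15.4%), 2 of 12 stromal genes (16.7%) and 1 of 14 monocyte genes (7.14%). Of the remaining lists, 3 of 12 mast cell and basophil genes, 6 of 23 cell cycle genes, 3 of 15 ETS, RUNX and CTCF genes and 3 of 16 adhesion genes had a member that near. The share was 21.7% over all protein-coding genes and 28.0% over those tested in RNA, so the lists lay on both sides of it. Of the endothelial genes, 58.3% had a region only in 6bKO that near, more than had a member. Their median length was 44.6 kb, against 17.1 kb for all protein-coding genes. Tcf7, a T cell factor, had a member within the gene at 4.64, 8.56 and 6.48 while its RNA stayed between 0 and 1.02 CPM. Rag2 of the antigen receptor recombinase had one at the start of Iftap at 3.36, 3.83 and 4.62, with RNA of 0.0989 to 0.731 CPM. Flt1, a VEGF receptor, had the strongest member of the endothelial list at 8.58, 6.46 and 17.9, with RNA of 0.148 to 2.36 CPM. That member lay inside Pan3, 18977 bp outside Flt1 and 183384 bp from its start. Ccr2, a chemokine receptor of monocytes, had a member inside the gene at 3.53, 8.39 and 7.62. A member thus lay near genes that these cells barely transcribe as well as near genes they express strongly, and with lists of 12 to 30 genes each share moves by several points for a single gene.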

How the data were processed

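Members and gene lists were chosen with earlier results of these data known. Per the labels, samples are mouse bone marrow HSCs and the build is mm10. The authors deposited 1 file of raw read counts per RNA library and 1 peak list per ATAC library. The submitters' processing notes name STAR 2.0.4, Subread's featureCounts 1.4.5, HTSeq 0.8.0 and Partek 6.6 on the RNA side, and cutadapt 1.16, BWA 0.7.16a and MACS2 on the ATAC side, without roles. The sources used here name neither the annotation release nor the strand setting. In the deposited peak lists the fold enrichment is a ratio, p and q are −log10 values and a score is each peak's display value, which was not used. They are the authors' own and were read only within a list. Lines that name no gene did not enter the library sizes, and lines with a gene held 16.46% to 19.73% of each file's reads.

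Peaks overlapping by at least 1 bp were merged. Gene spans, starts and promoter windows came from RefSeq tables of GRCm38.p6, matched by symbol. They placed 88.5% of tested genes, and starts on chromosome 18 were not used here. Summit reads and background were solved from fold and p. The RNA test was that of edgeR 4.0.16, run in R 4.3.3 (genes kept by filterByExpr, TMM factors, robust quasi-likelihood fit on genotype, two-sided, Benjamini-Hochberg over 15185 genes, threshold 0.05). SE is the log2 fold change over the square root of F. Both programs were tested on simulated data. Alternatives used DESeq2 1.42.0, limma 3.58.1 and other settings. RNA p-values set the difference between groups against the spread between these libraries. Each RNA library is a pool of mice, so this is not the spread between single animals. Chi-square per degree of freedom of replicate pairs was at least 14.75, so no pair was merged. Named regions were the 10 with the highest and 3 with the lowest of lowest-of-3 fold, the one nearest Kdm6b and up to 2 per gene list. Named genes were their neighbours and up to 10 called near genes per direction, predicted genes left out, and 1 of them is not reported here. Promoter genes and the genes listed only as counts were named after their values were seen.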

Additional observations from a re-analysis of the deposited data

How the results depend on the processing

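The number of members was 2568 and became 1395 with equal list lengths. Leaving out 1 ATAC library and its condition gave 3373 to 6088 regions. The share at a start, 13%, was 15.2% at a −log10 q of at least 5, 10.1% within 500 bp and 16.7% within 2 kb of a start, and 11.6% to 15.7% without 1 library. Median width, 385 bp, was 400.0 bp at a −log10 q of at least 5 and 315 to 403 bp without 1 library. The median lowest-of-3 fold, 4.15, was 4.43 at that threshold, 4.74 with equal lists and 4.04 to 5.26 without 1 library.

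Of all genes 70 passed in edgeR, 466 with DESeq2, 576 without the filter on low counts, 42 with limma-voom, 100 with library totals and 88 with the replicate block. Of near genes 12 passed, and 108, 125, 8, 27 and 15 in the same order. Leaving out 1 RNA library gave 20 to 519 of all genes and 2 to 115 of near genes. Within 10 kb 7 passed, within 1 kb 6, and 6 as nearest gene. Library totals moved the median log2 fold change of all genes by 0.15, and the split of calls to 70 higher and 30 lower from 37 and 33. The replicate block split them 35 and 53. DESeq2 split its calls 190 and 276. Deviations from the group means had correlations of 0.0585, 0.175 and -0.103 between same-numbered libraries. With so few libraries per group, and no values for different-numbered pairs, these cannot tell whether a shared number marks a shared batch. Of 502 values of single named genes under an alternative, 67 kept a call, 43 lost one, 15 gained one and 377 were called in neither fit. Of the last, 23, of 10 genes, changed sign. The causes were not tested. ATAC depth is not given, and RNA depth was lowest at 6793873 counts.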
